A study of Homo sapiens with 16 samples.

Results

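ID1, ID2, ID3, ID4, BMP2, BMP4, BMP7, SMAD6 and BAMBI, genes that carry, read out or restrain bone morphogenetic protein (BMP) signalling, were followed in 16 RNA-seq libraries of 2 human skin cell lines in which the transcriptional co-activator YAP had been removed or over-activated. The 9 symbols were looked up among the 26229 rows of the gene table, and all 9 were present and had enough counts to be tested. They were picked with results from these same libraries in view, so the tests below describe the members and are not independent support for the choice. A431 is a human epidermoid carcinoma line with many copies of the EGF receptor gene, and HaCaT is a spontaneously immortalised human keratinocyte line. Each line gave 1 library of cells given a control siRNA (siCTRL), 3 of cells given siRNA against YAP1 (siYAP), 1 of cells given an empty vector, and 3 of cells given YAP5SA, a YAP1 mutant labelled as constitutively active. The protocol, which is stated for every sample, used medium with foetal calf serum, 2 rounds of transfection 24 h apart and RNA taken 48 h after the second. Each line stands for itself alone, the vector and promoter behind YAP5SA are not given in the sources used here, and every control group is 1 library, so the spread in each test came from the 4 triplicate groups. The study's methods call the triplicates biological, but no source used here says whether they were separate cultures, and if they were not, the p-values measure only the spread between these libraries.

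BMPs are secreted dimers that bind pairs of type I and type II serine/threonine kinase receptors, whereupon the type I receptor phosphorylates SMAD1, SMAD5 or SMAD9, which enter the nucleus with SMAD4. ID1, ID2, ID3 and ID4 are among the best-known direct targets of these SMADs; the ID proteins lack a DNA-binding domain and hold E proteins away from DNA, which delays differentiation in many lineages. SMAD6 blocks the pathway inside the cell and BAMBI, a receptor-like protein without a kinase, blocks it at the membrane, and both are themselves induced by BMPs. In skin the pathway is known for roles in epidermal commitment, keratinocyte differentiation and the resting phase of hair follicle stem cells.

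YAP1, the targeted gene, was measured first, in CPM, a gene's share of the library's counts after TMM scaling of library size. In A431 it stood at 94.2 CPM in the siCTRL library and at 5.34, 6.99 and 5.04 CPM in the siYAP libraries, against 124 CPM with the empty vector and 1494, 3244 and 2938 CPM with YAP5SA. In HaCaT it stood at 254 CPM in the siCTRL library and at 23.2, 21.6 and 21.8 CPM in the siYAP libraries, against 423 CPM with the empty vector and 7546, 22243 and 10064 CPM with YAP5SA. YAP1 was therefore low in all siYAP libraries and high in all YAP5SA libraries, and the highest of all was HaCaT YAP5SA replicate 2. Libraries held 18115624 to 46791673 estimated counts, and 3 counts were worth 0.0630 to 0.164 CPM. EGFR was higher in every A431 library than in any HaCaT library, and all 6 keratinocyte markers (KRT5, KRT14, KRT17, TP63, ITGA6, SFN) were present in every group. The siRNA and vector arms of the HaCaT experiment stood apart from each other. The summed keratinocyte markers were 1845 to 2255 CPM in the 4 HaCaT siRNA libraries and 4604 to 7183 CPM in the 4 HaCaT vector libraries. Of 6 fibroblast markers, decorin (DCN) lay at 11.3 to 14.2 CPM in the HaCaT siRNA libraries and at no more than 0.0765 CPM in the HaCaT vector libraries, whereas COL1A2, COL3A1, PDGFRB and THY1 stayed below 1 CPM in all groups. The collagen gene COL1A1 was at 1.69 CPM with siCTRL and 3.16 to 5.68 CPM with siYAP in HaCaT, at 0.605 CPM with the empty vector and 0.660 to 1.64 CPM with YAP5SA there, and at 0.343 to 2.79 CPM in A431.

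The 8 members other than BAMBI were higher in HaCaT than in A431, averaged over the 4 treatments, and BAMBI is described apart. ID1 had a median of 95.8 CPM in the 8 A431 libraries (71.0 to 145.9) and 324 CPM in the 8 HaCaT libraries (110 to 365), and was the 1 member whose 2 lines overlapped. ID2 had a median of 4.63 CPM in A431 (2.11 to 7.53) and 51.3 CPM in HaCaT (36.3 to 120.9). ID3 had a median of 15.4 CPM in A431 (8.86 to 19.4) and 83.7 CPM in HaCaT (49.8 to 98.8). All but ID1 were thus separated by line in every library, and how many of all genes are so separated was not counted. ID4 had a median of 2.19 CPM in A431 (1.41 to 2.92) and 28.96 CPM in HaCaT (9.87 to 50.9). In log2 terms the fitted differences between the lines were 1.52 ± 0.19 (SE) for ID1, 3.82 ± 0.12 for ID2, 2.44 ± 0.17 for ID3 and 3.72 ± 0.21 for ID4.

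The 3 ligands showed smaller gaps for BMP4 and BMP7 than for BMP2. BMP2 ranged from 2.10 to 3.14 CPM in A431 and from 13.1 to 23.1 CPM in HaCaT, a log2 difference of 2.82 ± 0.12. BMP4 ranged from 1.61 to 3.96 CPM in A431 and from 4.64 to 11.7 CPM in HaCaT (1.51 ± 0.18), and BMP7 from 2.80 to 9.86 CPM and from 10.3 to 22.6 CPM (1.36 ± 0.13). Of the inhibitors, SMAD6 ranged from 1.11 to 2.24 CPM in A431 and from 3.13 to 16.5 CPM in HaCaT (2.72 ± 0.29). BAMBI was almost silent in A431, where no library held more than 16 counts, and lay between 4.37 and 10.3 CPM in HaCaT. It passed the filter on low counts through HaCaT alone. The false discovery rate (FDR), here the p-value of edgeR's quasi-likelihood test adjusted by Benjamini-Hochberg over the 14673 genes tested, ran from 2.63e-11 for ID2 to 7.95e-06 for ID1. A gene is called below at FDR under 0.05 with a mean log2 CPM above 1. By that rule the 8 members other than BAMBI were called between the lines, beside 60.6% of all genes tested. BAMBI is left out of this count, since it was tested only because it is high in HaCaT.

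**Figure D1:**
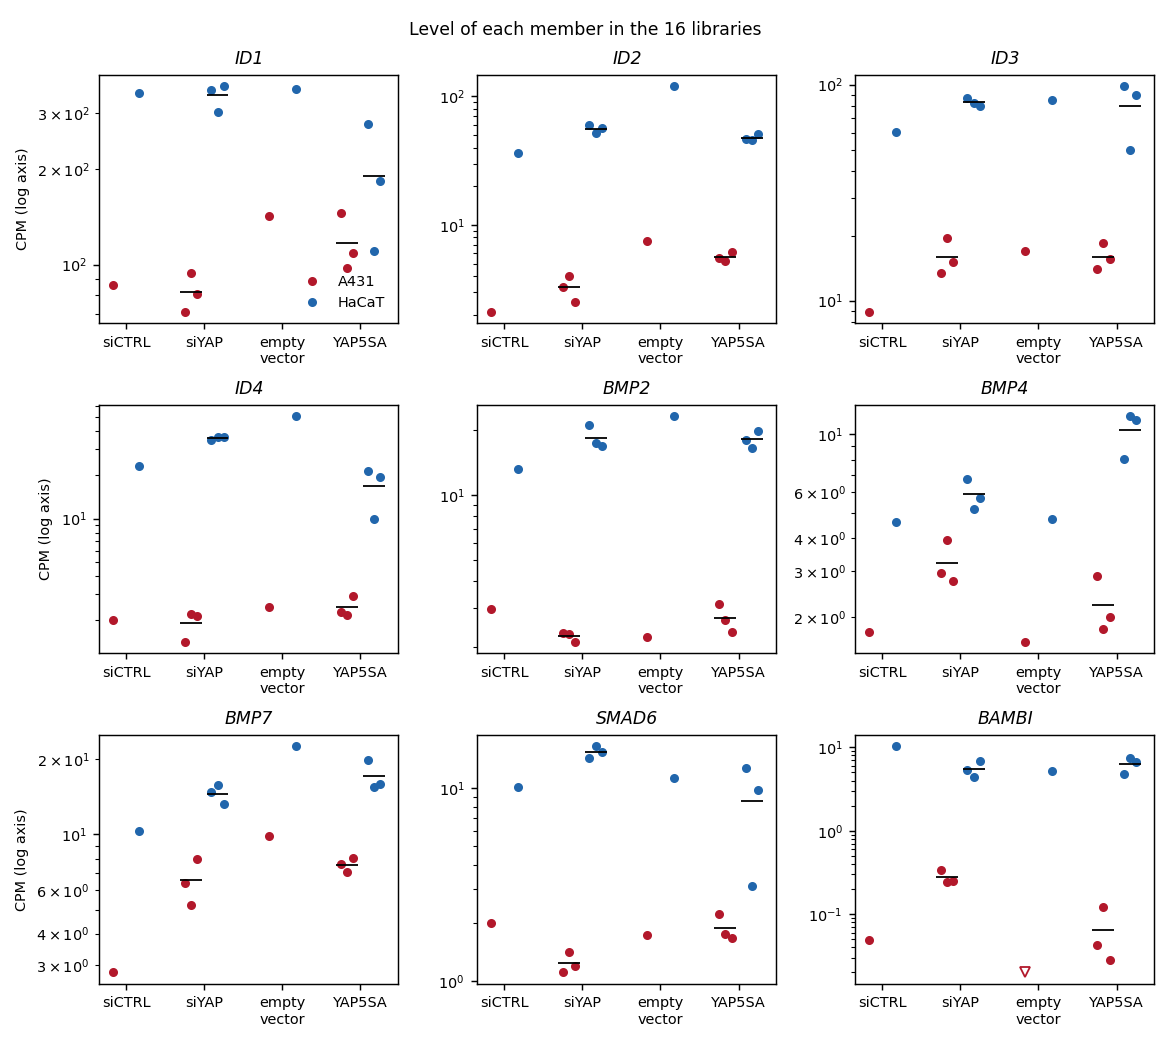
Level of each member in CPM (log axis) in the 16 libraries, by treatment (horizontal axis) and line (red A431, blue HaCaT). Points are libraries, black lines are means of 3 libraries, and the open triangle marks BAMBI at 0 in the A431 empty vector library. In every panel except ID1 all 8 HaCaT points lie above all 8 A431 points.

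Levels can be set between genes only per length of transcript. Dividing CPM by the summed exon length of the GENCODE v29 transcript whose coding part is longest placed ID1 first and ID3 second in both lines. ID1 had a median of 96.4 CPM per kb in A431 and 326 CPM per kb in HaCaT, and ID3 of 12.3 and 66.9 CPM per kb. The ranges of these neighbours did not overlap in either line. ID2 followed ID3, at 2.27 CPM per kb in A431 and 25.2 CPM per kb in HaCaT; its range overlapped that of ID3 in HaCaT (17.8 to 59.2 against 39.8 to 78.9 CPM per kb) but not in A431. ID4 followed ID2 in HaCaT at 12.3 CPM per kb, and in A431 it lay below BMP7 and BMP4 at 0.932 CPM per kb. The ligands and inhibitors were lower: BMP2, BMP7, BMP4, BAMBI and SMAD6 had medians of 4.89, 3.90, 3.26, 3.21 and 3.14 CPM per kb in HaCaT, with ranges that overlapped from each to the next. In A431 BMP7 led these at 1.83 CPM per kb, followed by BMP4 at 1.24, BMP2 at 0.645, SMAD6 at 0.445 and BAMBI at 0.0457 CPM per kb.

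ID1, ID4 and SMAD6 moved together across the libraries and BMP4 moved against them, so the bases before their start sites are printed here. RefSeq windows of 300 bases (250 before the start and 50 after it, build GRCh38.p14) were held for 7 of the 9 members, in 9 windows because BMP4 has 3 starts. Each sequence runs 5′ to 3′ on the gene's strand, in lower case up to the start site, with matches in capitals. Capitals mark GGAATG or its reverse complement CATTCC, the core bound by the TEAD factors through which YAP reaches DNA, and GTCTAGAC, the palindromic SMAD element; GGCGCC, a GC-rich element bound by BMP SMADs, was searched as well, on both strands in each case. A match that spans the start is printed to its last base.
ID1, chr20:31605039-31605293, plus strand: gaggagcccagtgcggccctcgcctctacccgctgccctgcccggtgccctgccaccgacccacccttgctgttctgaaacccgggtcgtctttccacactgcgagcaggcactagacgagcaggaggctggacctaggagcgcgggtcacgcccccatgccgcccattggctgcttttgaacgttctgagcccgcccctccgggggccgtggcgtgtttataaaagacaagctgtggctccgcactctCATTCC
ID4, chr6:19837120-19837369, plus strand: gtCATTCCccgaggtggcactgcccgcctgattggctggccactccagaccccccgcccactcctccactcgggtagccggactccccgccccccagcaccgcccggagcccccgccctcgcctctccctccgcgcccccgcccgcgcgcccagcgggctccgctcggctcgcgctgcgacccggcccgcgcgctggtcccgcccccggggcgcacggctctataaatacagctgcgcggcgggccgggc
SMAD6, chr15:66701986-66702235, plus strand: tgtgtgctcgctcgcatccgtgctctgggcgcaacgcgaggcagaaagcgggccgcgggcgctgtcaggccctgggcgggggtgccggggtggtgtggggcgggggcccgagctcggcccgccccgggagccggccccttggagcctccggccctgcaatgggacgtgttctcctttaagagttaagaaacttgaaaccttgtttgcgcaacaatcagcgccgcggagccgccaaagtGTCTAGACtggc
BMP4, chr14:53953391-53953645, minus strand: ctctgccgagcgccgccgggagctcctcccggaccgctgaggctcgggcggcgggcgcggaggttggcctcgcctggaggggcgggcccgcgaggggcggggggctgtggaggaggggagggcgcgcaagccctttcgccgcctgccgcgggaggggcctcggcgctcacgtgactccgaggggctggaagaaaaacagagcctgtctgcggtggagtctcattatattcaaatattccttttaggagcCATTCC
In ID1 and in this BMP4 window CATTCC began 1 base before the start, and in ID4 it began 248 bases before it. Of the 3 BMP4 windows only this 1 is printed, and the others held neither GGAATG nor CATTCC. SMAD6 held GTCTAGAC beginning 12 bases before its start. GGAATG or CATTCC occurred in 14% of the 35116 windows of all genes, GTCTAGAC in 0.202% and GGCGCC in 19.2%. GGCGCC occurred 3 times in the BAMBI window and in another of the BMP4 windows, while the ID2 and ID3 windows held none of these letters. These are matches of letters, and binding was not measured.

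The control libraries of a line differed from each other in several members. ID2 was 3.58 times as high with the empty vector as with siCTRL in A431 (7.53 against 2.11 CPM) and 3.33 times as high in HaCaT (120.9 against 36.3 CPM). BMP7 was 3.52 times as high in A431 (9.86 against 2.80 CPM) and 2.19 times as high in HaCaT (22.6 against 10.3 CPM). For ID2 and BMP7 all 12 treated values of the 2 lines lay between the line's 2 controls. ID4 was 2.21 times as high with the empty vector in HaCaT, ID3 1.91 times and ID1 1.65 times as high in A431. BMP4 differed little, with ratios of 0.911 in A431 and 1.02 in HaCaT. BAMBI went the other way in HaCaT, at 10.3 CPM with siCTRL and 5.19 CPM with the empty vector. These are ratios of 1 library to 1, without a test. Since the siRNA and the vector differ in more than 1 respect, what separates the controls cannot be told apart, and the calls for ID2 and BMP7 are therefore also given against both controls together.

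**Figure D2:**
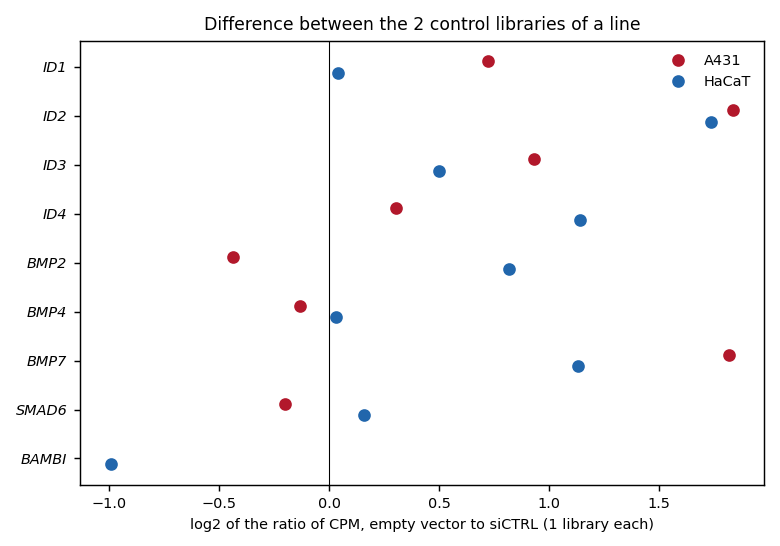
Ratio of the empty vector library to the siCTRL library of the same line for each member, in log2 of CPM (horizontal axis; red A431, blue HaCaT; 1 library each, no error). ID2 lies farthest to the right in both lines, followed by BMP7 in A431 and by ID4 and BMP7, almost level, in HaCaT. BMP4 and SMAD6 lie near 0, and BAMBI in A431 is not drawn because the empty vector library held 0 counts.

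The comparison of siYAP with siCTRL asked what loss of YAP did. BMP7 rose in A431, and over the mean of both lines ID2 and BMP7 rose; no member fell. In A431 BMP7 stood at 2.80 CPM in the siCTRL library and at 6.37, 5.23 and 8.003 CPM with siYAP, and the fitted log2 difference was 1.22 ± 0.28 (SE, 3 libraries against 1; FDR 0.0253). All 3 siYAP libraries were above their control and below the empty vector library. The call was lost without siYAP replicate 1 (FDR 0.0516) and without siYAP replicate 3 (FDR 0.0602). In HaCaT BMP7 stood at 10.3 CPM in the siCTRL library and at 14.8, 15.7 and 13.2 CPM with siYAP (0.50 ± 0.25, FDR 0.288; -0.18 against both controls together, FDR 0.767). Over both lines its log2 fold change was 0.86 ± 0.19 (FDR 0.0107). Against both controls together this became -0.07 (FDR 0.888), and in A431 it became 0.04 (FDR 0.984).

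ID2 with siYAP was at 3.30, 4.03 and 2.50 CPM in A431, against 2.11 CPM with siCTRL. In HaCaT it was at 59.9, 52.0 and 56.7 CPM against 36.3 CPM. All 6 siYAP libraries were above the siCTRL library of their line, and the log2 fold change over both lines was 0.64 ± 0.16 (FDR 0.0203). Against both controls together it turned to -0.52 (FDR 0.254), since the empty vector libraries lay higher still. ID3 was also above siCTRL in all 6 siYAP libraries, at 13.4, 19.4 and 15.2 CPM against 8.86 CPM in A431 and at 87.1, 82.4 and 79.5 CPM against 60.2 CPM in HaCaT, without passing the threshold of edgeR over both lines (0.66 ± 0.23, FDR 0.0749), although DESeq2 called it there (FDR 0.0238). ID1 gave values close to siCTRL, at 71.0, 94.1 and 81.0 CPM against 86.5 CPM in A431 and at 356, 302 and 365 CPM against 347 CPM in HaCaT, with a log2 fold change over both lines of -0.05 ± 0.26. ID4 had log2 fold changes of -0.09 ± 0.44 in A431 and 0.64 ± 0.35 in HaCaT.

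BMP4 was above siCTRL in all 6 siYAP libraries, at 2.94, 3.96 and 2.74 CPM against 1.76 CPM in A431 and at 6.77, 5.20 and 5.72 CPM against 4.64 CPM in HaCaT. Its log2 fold change over both lines was 0.61 ± 0.26 (FDR 0.146), and 0.63 (FDR 0.0399) against both controls together, which for BMP4 lay close to each other. BMP2 pointed down in A431 (-0.42 ± 0.25) and up in HaCaT (0.49 ± 0.22), and SMAD6 did the same (-0.70 ± 0.59 and 0.60 ± 0.52). BAMBI in A431 had 1 count with siCTRL and 28 counts in the 3 siYAP libraries together, a ratio of 5.92 with a 95% exact interval of 0.978 to 242 for counting error only. In HaCaT it was at 5.30, 4.37 and 6.94 CPM with siYAP, all below the 10.3 CPM of siCTRL (-0.89 ± 0.37, FDR 0.188). In all, 1 member was called in A431 beside 5.6% of all genes, none in HaCaT beside 5.67%, and 2 over both lines beside 13%. In HaCaT 3 members (ID2, BMP2 and BAMBI) had an unadjusted p under 0.05, as did 2997 of the 14673 genes tested. DESeq2 called 1 member there, ID2 (FDR 0.017), and its count of all genes is given at the end. The median log2 fold change over both lines was 0.61 for the members, BAMBI included, and 0.04 for all genes tested. It describes members picked with these libraries in view, and the values under it depend on the control. Against both controls together ID2, BMP7 and ID4 turned to -0.52, -0.07 and -0.14. ID3, BMP4 and BAMBI stayed above 0, at 0.25, 0.63 and 1.44. The difference between the lines in the response to siYAP was called for no member, beside 0.17% of all genes. BMP2 had an unadjusted p under 0.05 there, as did 1690 of the 14673 genes tested. BAMBI, almost silent in A431, did too, and DESeq2 called no member.

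**Figure D3:**
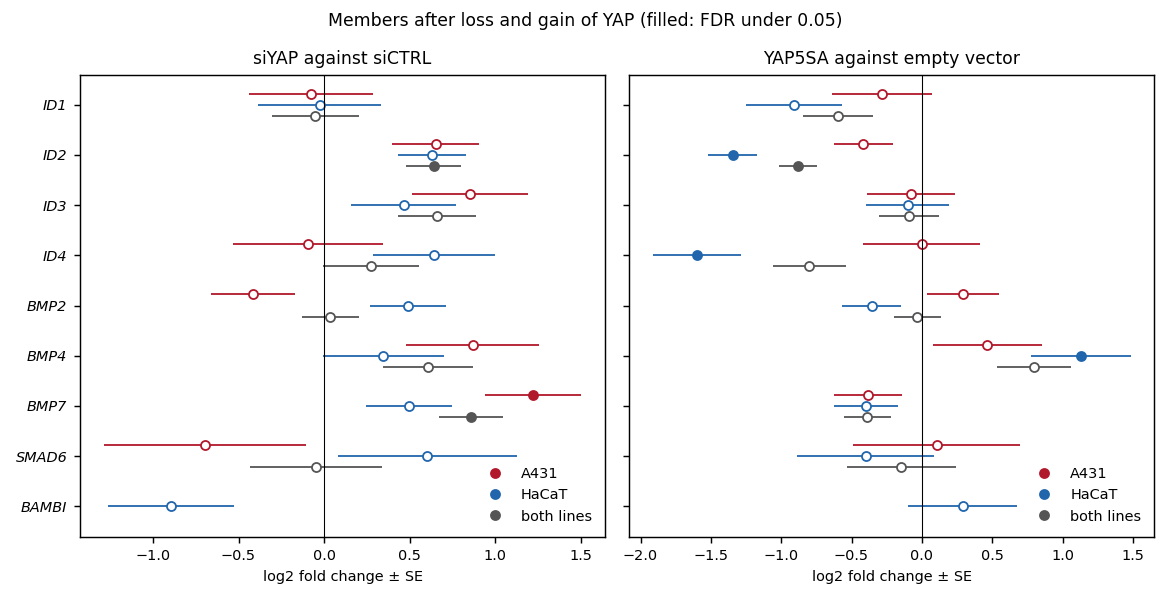
Log2 fold changes with SE of the members for siYAP against siCTRL (left) and YAP5SA against empty vector (right) in A431 (red), HaCaT (blue) and over both lines (grey); filled points have FDR under 0.05. ID2 lies right of 0 on the left and left of 0 on the right, whereas BMP4 lies right of 0 on both sides; BAMBI is drawn for HaCaT alone because the A431 controls held 1 and 0 counts.

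The comparison of YAP5SA with the empty vector asked what active YAP did. In HaCaT ID2 and ID4 fell and BMP4 rose, and in A431 no member was called. ID4 in HaCaT was at 50.9 CPM with the empty vector and at 21.2, 9.87 and 19.4 CPM with YAP5SA, a log2 fold change of -1.60 ± 0.31 (FDR 0.00914), or 3.02-fold lower. All 3 YAP5SA libraries were below both controls of the line, the lower of which, siCTRL, was at 23.0 CPM. ID2 in HaCaT was at 120.9 CPM with the empty vector and at 46.4, 45.7 and 50.6 CPM with YAP5SA (-1.34 ± 0.18, FDR 0.00178, 2.54-fold lower). These libraries were below the empty vector and above siCTRL, and against both controls together the log2 fold change was -0.73 (FDR 0.277). Over both lines ID2 fell by 0.88 ± 0.14 on the log2 scale (FDR 0.0101), and against both controls together the value was -0.25 (FDR 0.628).

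ID1 in HaCaT was at 357 CPM with the empty vector and at 277, 110 and 183 CPM with YAP5SA. The 3 libraries lay below both controls but far from each other, and the log2 fold change of -0.91 ± 0.34 had an FDR of 0.0898 by edgeR. It was called by DESeq2 (FDR 0.0468) and, by edgeR, without YAP5SA replicate 1 (-1.28, FDR 0.00805). ID3 did not order the groups: it was at 85.1 CPM with the empty vector and at 98.8, 49.8 and 89.2 CPM with YAP5SA. SMAD6 was at 11.3 CPM with the empty vector and at 12.8, 3.13 and 9.81 CPM with YAP5SA (-0.40 ± 0.49, FDR 0.607). Replicate 2, the library with most YAP1, had the lowest ID1, ID3, ID4 and SMAD6 of all 8 HaCaT libraries.

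BMP4 in HaCaT was at 4.74 CPM with the empty vector and at 8.04, 11.7 and 11.3 CPM with YAP5SA, all above every control and siYAP library of the line. The log2 fold change of 1.13 ± 0.36, or 2.19-fold higher, had an FDR of 0.0499. This call sat at the threshold: without YAP5SA replicate 2 the FDR was 0.068, and without replicate 3 it was 0.101. Same-numbered YAP5SA libraries of the 2 lines deviated from their group means together, and with the replicate number as a block the call was lost (FDR 0.0645). Over both lines BMP4 had a log2 fold change of 0.80 ± 0.26 (FDR 0.114), and 0.77 (FDR 0.0433) against both controls together. BMP2 and BMP7 in HaCaT were below the empty vector and above siCTRL in all 3 YAP5SA libraries, with log2 fold changes of -0.36 ± 0.21 and -0.40 ± 0.23. BAMBI was at 5.19 CPM with the empty vector and at 4.79, 7.52 and 6.73 CPM with YAP5SA.

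In A431 the members' log2 fold changes with YAP5SA ran from -0.41 ± 0.21 for ID2 to 0.46 ± 0.39 for BMP4, leaving aside BAMBI, which had 0 counts with the empty vector and 1, 3 and 1 with YAP5SA, at or under the 3 counts that a reading of 0 allows. No member was called by edgeR there, none had an unadjusted p under 0.05 and DESeq2 called none, beside 0% of all genes called; of these, 828 had an unadjusted p under 0.05 and DESeq2 called 3. In HaCaT 3 of 9 members were called beside 13.6% of all genes, and over both lines 1 of 9, ID2, beside 2.04% (300 genes, or 611 with the replicate block). The median log2 fold change of the members in HaCaT, BAMBI included, was -0.40, against 0.01 for all genes tested. It too describes members picked with these libraries in view. The response to YAP5SA was not shown to differ between the lines for any member by edgeR, beside 0.0886% of all genes called. ID2 and ID4 had an unadjusted p under 0.05 (-0.93 ± 0.28, FDR 0.098, and -1.59 ± 0.53, FDR 0.122), as did 3280 of the 14673 genes tested. DESeq2 called these 2 members (FDR 0.0333 and 0.0495), and its count of all genes is given at the end.

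The siYAP and YAP5SA groups can also be set against each other, 3 libraries against 3, with siRNA and vector differing along with YAP. Here the members moved differently in the 2 lines. In HaCaT ID1, ID4 and SMAD6 were lower with YAP5SA than with siYAP and BMP4 was higher. ID1 was at 356, 302 and 365 CPM with siYAP and 277, 110 and 183 CPM with YAP5SA (-0.84 ± 0.26, FDR 0.0103), and ID4 at 34.9, 36.3 and 36.7 CPM against 21.2, 9.87 and 19.4 CPM (-1.10 ± 0.24, FDR 0.00127). SMAD6 was at 14.3, 16.5 and 15.5 CPM against 12.8, 3.13 and 9.81 CPM (-0.84 ± 0.35, FDR 0.0485). BMP4 was at 6.77, 5.20 and 5.72 CPM against 8.04, 11.7 and 11.3 CPM (0.81 ± 0.24, FDR 0.00787). None of these 4 pairs of groups overlapped, and how often that held among all genes was not counted. The SMAD6 call was weak and was lost without any 1 of 5 libraries: YAP5SA replicate 2 (-0.45, FDR 0.0534) or 3 (FDR 0.064), or siYAP replicate 1 (FDR 0.0715), 2 (FDR 0.107) or 3 (FDR 0.0938). These 4 members were called in HaCaT beside 60% of all genes. The same 6 libraries differed in DCN (11.3 to 14.2 CPM with siYAP, at most 0.0765 CPM with YAP5SA) and in the summed keratinocyte markers (1845 to 2255 against 4604 to 7183 CPM), and the part of that difference in these results was not tested.

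In A431 ID2 was higher with YAP5SA than with siYAP. ID2 was at 3.30, 4.03 and 2.50 CPM with siYAP and 5.55, 5.23 and 6.11 CPM with YAP5SA, with no overlap (0.77 ± 0.15, FDR 0.0019). BAMBI had 16, 7 and 5 counts with siYAP and 1, 3 and 1 counts with YAP5SA, which gives a ratio of 4.85 with a 95% exact interval of 1.85 to 16.1 for counting error only; edgeR called it (FDR 0.00864), but not without YAP5SA replicate 3 (FDR 0.0571). ID2 was called beside 34.6% of all genes. BAMBI is not set beside that share, since it passed the filter on low counts through HaCaT alone. ID1 was at 71.0, 94.1 and 81.0 CPM with siYAP and 145.9, 97.5 and 108.7 CPM with YAP5SA (0.52 ± 0.26, FDR 0.132), and SMAD6 at 1.11, 1.41 and 1.198 CPM against 2.24, 1.76 and 1.67 CPM (0.60 ± 0.42, FDR 0.276). Neither pair of groups overlapped, and both pointed the other way in HaCaT. The summed keratinocyte markers in A431 were 2963 to 3524 CPM with siYAP and 3930 to 4364 CPM with YAP5SA. The 6 markers split, with 3 higher and 3 lower with YAP5SA, of which 2 were called higher and 1 lower. The A431 controls also differed, the empty vector library being 3.58 times siCTRL for ID2, 1.65 times for ID1 and 0.869 times for SMAD6. For YAP5SA over siYAP the ratios of mean CPM were 1.72, 1.43 and 1.52. Against its own control, ID2 in A431 had a log2 fold change of 0.65 ± 0.26 with siYAP and -0.41 ± 0.21 with YAP5SA. The part of these differences in the results was not tested.

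A test of that difference between the lines, HaCaT minus A431, was made after the data were seen. It called ID1, ID2, ID4, SMAD6 and BMP4, beside 40.2% of all genes. BAMBI also passed but is not set beside that share, since it was tested only because it is high in HaCaT. The log2 difference was -1.36 ± 0.36 for ID1 (FDR 0.00859), -1.01 ± 0.20 for ID2 (FDR 0.00143), -1.49 ± 0.38 for ID4 (FDR 0.00618) and -1.45 ± 0.55 for SMAD6 (FDR 0.0478). It was 1.35 ± 0.35 for BMP4 (FDR 0.00659) and 2.35 ± 0.62 for BAMBI (FDR 0.008). ID3, BMP2 and BMP7 had differences of -0.07 ± 0.30, -0.30 ± 0.23 and 0.01 ± 0.24.

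**Figure D4:**
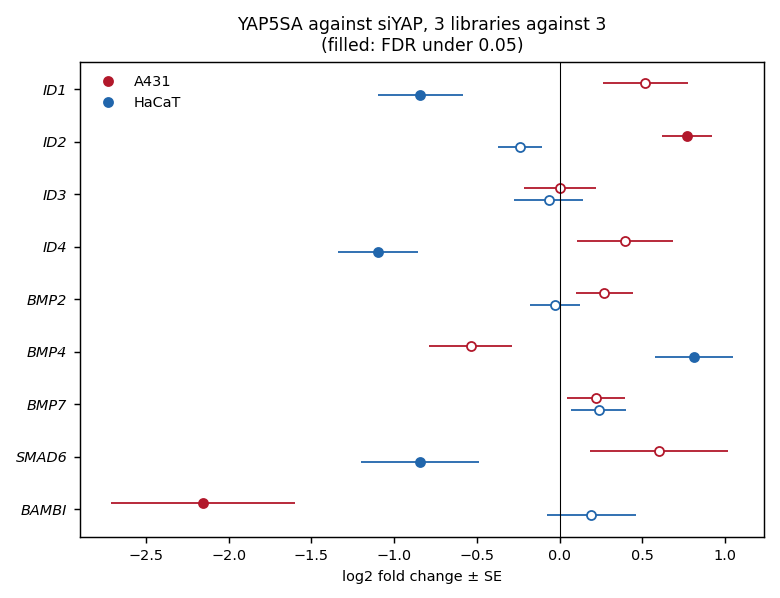
Log2 fold change with SE of each member for YAP5SA against siYAP, 3 libraries against 3, in A431 (red) and HaCaT (blue); filled points have FDR under 0.05. ID1, ID2, ID4 and SMAD6 lie right of 0 in A431 and left of it in HaCaT, and BMP4 and BAMBI do the reverse.

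The rest of the pathway was described by 73 further genes, of which 52 were tested. Of these, 5 were called with siYAP in A431 (beside 5.6% of all genes), 4 in HaCaT (5.67%) and 6 over both lines (13%). With YAP5SA 0 were called in A431 (0%), 9 in HaCaT (13.6%) and 1 over both lines (2.04%). All receptor calls against a control were decreases, 4 of 8 tested receptors with siYAP in A431 and 3 of 8 with YAP5SA in HaCaT, beside the same 5.6% and 13.6%. With siYAP in HaCaT 0 receptors were called, 4 pointed up and 4 down, with BMPR2 among those up (0.39 ± 0.15, FDR 0.17). BMPR1B, a type I receptor for BMPs, was at 5.86, 5.93 and 3.74 CPM with siYAP in A431, below the 14.5 CPM of siCTRL (-1.48 ± 0.31, FDR 0.0168). In HaCaT it was at 1.47, 2.72 and 1.92 CPM with siYAP, below the 4.70 CPM of siCTRL (-1.22 ± 0.35, FDR 0.0579), and over both lines it fell by 1.35 ± 0.23 on the log2 scale (FDR 0.00279), the largest change among the receptors. The type I receptor BMPR1A (-0.49 ± 0.12, FDR 0.0385), the type II receptor BMPR2 (-0.58 ± 0.15, FDR 0.042) and the activin and BMP type II receptor ACVR2A (-0.56 ± 0.15, FDR 0.0466) also fell with siYAP in A431. With YAP5SA in HaCaT ACVR2A went from 30.6 CPM to 15.6, 14.9 and 16.1 CPM (-0.98 ± 0.14, FDR 0.00325). ACVR1 (-0.80 ± 0.24, FDR 0.0426) and BMPR1A (-0.41 ± 0.12, FDR 0.0402) fell there as well. As a mean of both lines ACVR2A was lower with siYAP (-0.38 ± 0.11, FDR 0.0334) and with YAP5SA (-0.53 ± 0.11, FDR 0.0311). Each mean came mostly from 1 line. ACVR2A was not called with siYAP in HaCaT (-0.20 ± 0.15, FDR 0.51) or with YAP5SA in A431 (-0.07 ± 0.15, FDR 0.935).

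Among the proteases that mature BMPs, PCSK5 rose and PCSK6 fell with siYAP, and each moved the other way with YAP5SA in HaCaT. PCSK5 in HaCaT was at 125.8 CPM with siCTRL, 299.9, 290.5 and 325.9 CPM with siYAP (1.28 ± 0.23, FDR 0.00716), 117.4 CPM with the empty vector and 85.5, 52.3 and 81.0 CPM with YAP5SA (-0.69 ± 0.21, FDR 0.0445). PCSK6 in HaCaT was at 14.5 CPM in the siCTRL library and at 7.97, 7.43 and 8.29 CPM in the siYAP libraries (-0.88 ± 0.21, FDR 0.024), and at 5.82 CPM with the empty vector and 10.99, 10.93 and 12.7 CPM with YAP5SA (0.99 ± 0.22, FDR 0.0153). All 6 treated values of PCSK6 in HaCaT thus lay between the 2 controls, which differed from each other more than either treatment differed from its control. Over both lines with siYAP PCSK5 rose by 0.85 ± 0.16 (FDR 0.00499) and PCSK6 fell by 0.59 ± 0.14 (FDR 0.0183). FURIN rose with YAP5SA in HaCaT (1.21 ± 0.26, FDR 0.0116), and BMP1, which also cleaves procollagens and the antagonist chordin, rose with siYAP in A431 (0.78 ± 0.21, FDR 0.0446). BMP1 in A431 was at 24.5 CPM with siCTRL and at 39.4, 41.1 and 46.1 CPM with siYAP. The empty vector library of A431 was at 43.2 CPM, within the range of the siYAP libraries.

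Of the ligands, BMP3, which opposes other BMPs, was at 0.399 CPM or less in A431 and 67.2 CPM in HaCaT siCTRL. With YAP5SA in HaCaT it was at 9.26, 3.56 and 4.04 CPM against 23.6 CPM (-2.07 ± 0.42, FDR 0.0103). Of the extracellular modulators, BMPER was listed at 0 in all 8 A431 libraries and rose with siYAP in HaCaT, from 1.58 to 7.08, 8.06 and 9.61 CPM (2.38 ± 0.51, FDR 0.0275). BMPER pointed up with YAP5SA in HaCaT too, without a call, from 3.09 to 4.30, 7.89 and 7.32 CPM (1.07 ± 0.45, FDR 0.136). NBL1, an antagonist of the DAN family, rose with siYAP in HaCaT (0.74 ± 0.19, FDR 0.0375) and over both lines (0.56 ± 0.13, FDR 0.0148). With YAP5SA it also pointed up, without being called, in A431 (0.70 ± 0.19) and over both lines (0.43 ± 0.13). CRIM1, a membrane-bound BMP-binding protein, rose with YAP5SA in HaCaT (0.70 ± 0.16, FDR 0.0155), as did TAB1, a partner of the kinase TAK1 (0.77 ± 0.24, FDR 0.0461). TAB1 was at 7.32 CPM with the empty vector and 10.8, 13.6 and 13.0 CPM with YAP5SA, below the 18.4 CPM of HaCaT siCTRL. GATA2, a BMP-responsive transcription factor, rose with siYAP over both lines (0.64 ± 0.20, FDR 0.0477). No other SMAD and no E protein was called with either treatment. The genes with the largest changes in their lists that were not called were SMAD7, an inhibitory SMAD (0.36 ± 0.16 with siYAP in HaCaT), STUB1, a ubiquitin ligase that targets SMADs (0.78 ± 0.31 with YAP5SA in HaCaT), and TCF3, an E protein (0.45 ± 0.23 with YAP5SA in HaCaT). MSX2, a homeobox target of BMPs, had the largest fitted value of its list in A431, where it held 0 to 6 counts in each library, and no fold is given.

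**Figure D5:**
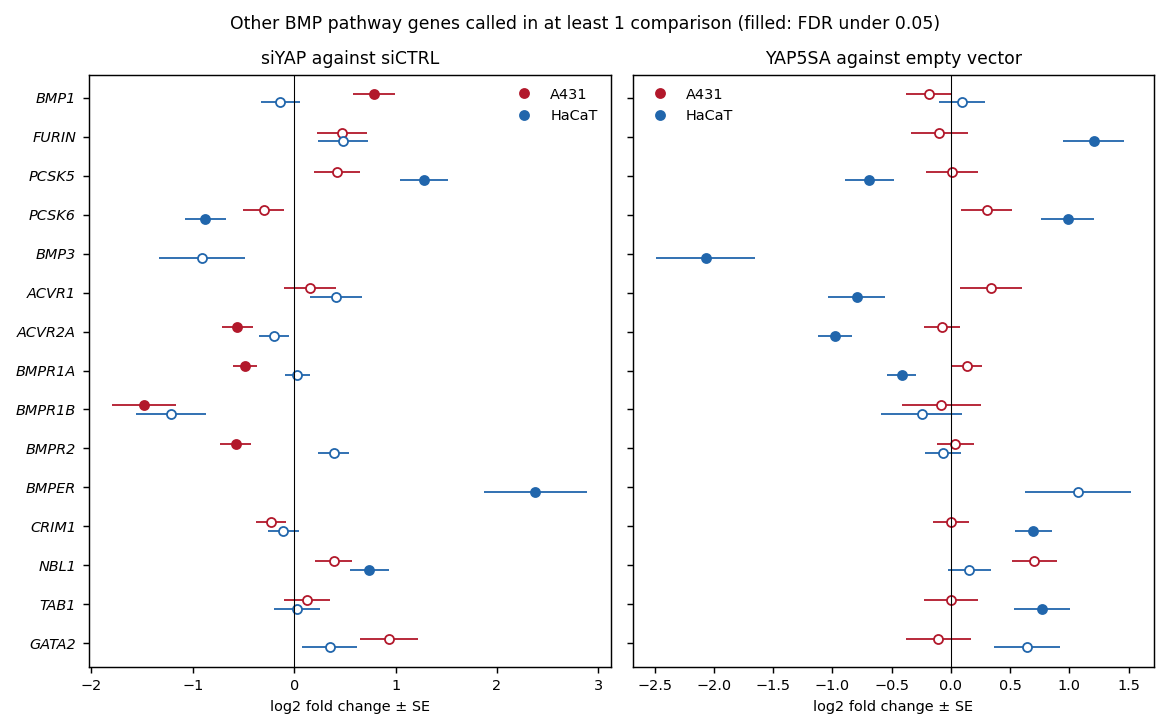
Log2 fold changes with SE of the 15 other BMP pathway genes called in at least 1 treatment comparison, for siYAP against siCTRL (left) and YAP5SA against empty vector (right) in A431 (red) and HaCaT (blue); filled points have FDR under 0.05. BMPR1B lies left of 0 in both lines with siYAP, and PCSK5 and PCSK6 change sides in HaCaT between the panels; BMP3 and BMPER are drawn for HaCaT alone because A431 held few or no counts.

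Likeness between genes was described by Pearson's r of log2 CPM centred within each line, over the 16 libraries and 12236 other genes with a mean log2 CPM above 1. The libraries share their treatments and controls, so these are descriptions. Among the members ID1 was most like SMAD6 (r = 0.84, Spearman's rho 0.69) and ID4 (r = 0.83, rho 0.75), ID4 was like SMAD6 (r = 0.78, rho 0.62), and ID2 was like BMP7 (r = 0.70, rho 0.56). BMP4 ran against ID1 (r = -0.66, rho -0.57) and ID4 (r = -0.64, rho -0.50). ID3 was less like ID1 (r = 0.40, rho 0.12). Among all genes, those most like ID1 were KLK11 (r = 0.93, rho 0.93) and PRR15 (r = 0.93, rho 0.91), those most like ID2 were CD58 (r = 0.93, rho 0.90) and RMDN1 (r = 0.91, rho 0.85), and those most like ID4 were PIK3R1 (r = 0.91, rho 0.87) and SSBP3 (r = 0.90, rho 0.87). ID3 was nearest TGM1 (r = 0.84) and TWF2 (r = 0.81), with rank correlations of 0.45 and 0.44. BMP4 was nearest NUAK1 (r = 0.93, rho 0.92) and PDGFB (r = 0.92, rho 0.90), BMP2 nearest the inhibitory SMAD7 (r = 0.83, rho 0.81) and ZNF24 (r = 0.79, rho 0.71), and BMP7 nearest ERP44 (r = 0.85, rho 0.71) and CLCA2 (r = 0.84, rho 0.74). SMAD6 was nearest ZNF773 (r = 0.89, rho 0.85) and SSBP3 (r = 0.88, rho 0.73), and BAMBI nearest GPHN (r = 0.87, rho 0.74) and FUT8 (r = 0.85, rho 0.88).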

How the data were processed

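RNA was sequenced as paired reads on 16 libraries, and the authors aligned them to hg19 RefSeq gene models and deposited estimated counts per gene from RSEM (1.2.11 in the submitters' processing notes; the methods name another version). Here the counts were rounded and fitted in edgeR 4.0.16 (R 4.3.3) by the quasi-likelihood method in 1 model of 8 groups with 8 residual degrees of freedom, with TMM scaling; the 14673 of 26229 genes whose counts averaged over 10 a library were kept. Calls needed an FDR under 0.05 and a log2 CPM above 1, and the SE is the log2 fold change divided by the root of F. The members and gene lists were chosen with earlier results of these data known. Named genes were all members, other pathway genes called with a treatment, the largest change in each list, YAP1, EGFR, and the 2 genes most like each member. The fit was tested on simulated data. Alternatives were DESeq2 1.42.0, other scaling and filters, each line alone, both controls together, a replicate block, and each treated library left out; the test between lines of YAP5SA against siYAP was added after the data were seen. Triplicates differed by more than sampling noise. Depth limits low genes such as BAMBI in A431, and exact 95% intervals there, from SciPy 1.17.1, cover counting error only. Among the gene symbols 28 had been turned into dates, none of them a member. By the labels' replicate numbers, the YAP5SA libraries of the 2 lines deviated together in all 3 pairs (r of 0.135 to 0.363) and the other groups did not in every pair; each control is a single library and cannot be paired.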

Additional observations from a re-analysis of the deposited data

Results flagged for a closer look

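For ID1, ID2, ID4, SMAD6 and BMP4 the difference between YAP5SA and siYAP itself differed between the lines, as it did for 40.2% of all genes. The values (edgeR, HaCaT minus A431 in log2) were -1.36 for ID1, -1.01 for ID2, -1.49 for ID4, -1.45 for SMAD6 and 1.35 for BMP4. BAMBI, at 2.35, also passed but was tested only because it is high in HaCaT. ID1 and SMAD6 were higher with YAP5SA in all A431 libraries and lower in all HaCaT libraries, without overlap of the groups. ID2 did the same, at 0.77 ± 0.15 in A431 and -0.24 ± 0.13 in HaCaT. In A431 the empty vector library was also above siCTRL for ID1 (1.65 times) and ID2 (3.58 times), but not for SMAD6 (0.869 times). YAP5SA was 1.43, 1.72 and 1.52 times siYAP there, in the same order. The part of the gap between controls in the A431 values was not tested. The calls for ID1, ID2, ID4, BMP4 and BAMBI held without any 1 treated library (highest FDR over the alternatives 0.0408, for BAMBI), and that for SMAD6 was lost without any of 10 of the 12 treated libraries (FDR 0.057 to 0.104). The HaCaT groups in this comparison also differ in decorin and keratinocyte markers, and the part of that in these values was not tested. Against their own controls no member's response was shown to differ between the lines by edgeR.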

How the results depend on the processing

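Over 1381 recomputed member values, 1310 kept their side of the threshold and moved by less than 1 SE or kept their call; 29 calls were lost, 14 were gained, 26 uncalled values moved by more than 1 SE and 2 called values reversed. Both reversals came with siCTRL and empty vector as 2 controls: with siYAP over both lines ID2 became -0.52 and BMP7 -0.0702 (log2). A further 60 uncalled values changed sign, 18 of them with both controls. With both controls 0 members were called with siYAP in A431 and 1 over both lines. DESeq2 called 1 member with siYAP in HaCaT, 2 with YAP5SA over both lines and 2 for the difference between lines of the YAP5SA response. With a minimum above 10 counts set for each library, 1 member was called for YAP5SA against siYAP in A431, because BAMBI was not tested. The member counts in this section include BAMBI where it was tested. Leaving out each treated library in turn gave 0 to 1 members called with siYAP in A431, 2 to 4 with YAP5SA in HaCaT, 1 to 4 over both lines (4 without HaCaT YAP5SA replicate 1), 1 to 3 for YAP5SA against siYAP in A431 and 3 to 4 in HaCaT, and 2 with siYAP over both lines. BMP4 with YAP5SA in HaCaT lost its call with RLE scaling (FDR 0.0513), no count filter (FDR 0.0628) and HaCaT fitted alone (FDR 0.0722), and SMAD6 for YAP5SA against siYAP in HaCaT with no count filter (FDR 0.0625) and HaCaT fitted alone (FDR 0.11).

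Same-numbered YAP5SA libraries of the 2 lines deviated together (r of 0.363, 0.158 and 0.135); no other 2 treated groups had an r above 0.1 in all 3 pairs (18 pairs in all, lowest -0.0435, 7 above 0.1). With the replicate number as a block 2 members were called with YAP5SA in HaCaT in place of 3, BMP4 having an FDR of 0.0645, and the block changed no other member's call; all genes called with YAP5SA over both lines went from 300 to 611.

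Counts of all genes called moved by over 1.5 times in these cases. With siYAP in A431 821 became 1430 with DESeq2 and 198 with both controls, and in HaCaT 832 became 1345, 2941 and, for the line alone, 349; over both lines 1904 became 2933 with both controls. With YAP5SA in A431 0 became 1 to 3, in HaCaT 2001 became 653 for the line alone, and over both lines 300 became 1063 with DESeq2 and 766 with both controls. For the difference between lines, 25 genes with siYAP became 294 with DESeq2 and 11 to 16 otherwise, and 13 with YAP5SA became 943 with DESeq2 and 1 to 217 otherwise. Without 1 treated library the ranges were 333 to 542 and 518 to 704 with siYAP in A431 and HaCaT, 0 to 87, 1142 to 2909 and 48 to 1367 with YAP5SA in A431, HaCaT and both, and 6 to 13 and 1 to 873 for the 2 differences between lines. Each control is 1 library, and BAMBI in A431 rests on few counts.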
